A study of Mus musculus with 51 samples.

Results

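The genes described here encode the proteins of the mouse cytosolic ribosome. They were chosen by symbol alone: protein-coding genes named Rps or Rpl with a number (with the paralog endings a, l and x), Rplp0 to Rplp2 and Rpsa. The rule found 84 members, 32 of the small and 52 of the large subunit, among 37525 genes listed in any of 5 RNA tables. The 24h table lists 81 of them and lacks Rpl10l, Rpl24 and Rpl3l. Ribosomal proteins that carry other symbols are not members.

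The series examined LoNA, a long non-coding RNA of the nucleolus, in C57BL/6 mouse embryos that its descriptions call 2-cell. Control and LoNA knockout (KO) embryos were each sampled at 18h, 20h, 22h and 24h, and the labels do not say from which event the hours are counted. Mouse embryonic stem cells (mESC), labelled 2C-like, were compared as control and LoNA knockdown (KD) cultures, of the same labelled strain. At 24h, chromatin of control and KO embryos was profiled with antibodies to H3K4me3, to H3K27me3 and to acetylated nucleophosmin (AcNPM1), and AcNPM1 also in KO embryos given a p300 inhibitor. The labels do not state how the knockout or knockdown was made, how many embryos were pooled, or whether replicates came from separate litters or cultures, so p-values measure the spread between libraries only. LoNA is not among the gene names of any RNA table, and the loss of its RNA was not checked here.

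Ribosomal proteins are made in the cytoplasm, imported into the nucleus and joined to ribosomal RNA in the nucleolus. Most of their mRNAs start with an oligopyrimidine tract, the TOP motif, through which growth signals acting by mTOR and Larp1 set how much of the mRNA is translated. The early mouse embryo uses ribosomes and mRNAs stored by the oocyte, and its own transcription starts in earnest at the 2-cell stage. Some members have a near copy elsewhere in the genome whose expression is known to be strongest in germ cells or in particular tissues, such as Rpl39l, Rpl10l and Rpl3l. Rps27l is the paralog of Rps27 and is known as a target of p53.

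The start regions of 6 members are shown first, because the RNA results turn on 2 paralog pairs and on Rps15a, while Rps6 gives a classic TOP start. Each window is RefSeq sequence of build GRCm38.p6, with 40 bases before the RefSeq start and 20 from it, and capitals mark a pyrimidine run of at least 5 bases that begins at the start. Rps6 (chr4:86857348-86857407, minus strand) encodes the protein phosphorylated by S6 kinase. Rps27 (chr3:90213629-90213688, minus strand) stands above its paralog Rps27l (chr9:66946046-66946105, plus strand). Rpl39 (chrX:37085203-37085262, minus strand) stands above Rpl39l (chr16:10170188-10170247, plus strand), and Rps15a (chr7:118116128-118116187, minus strand) comes last.
Rps6: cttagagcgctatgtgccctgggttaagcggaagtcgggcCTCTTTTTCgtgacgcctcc
Rps27: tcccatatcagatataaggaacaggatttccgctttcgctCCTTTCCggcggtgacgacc
Rps27l: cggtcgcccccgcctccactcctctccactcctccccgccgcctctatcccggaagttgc
Rpl39: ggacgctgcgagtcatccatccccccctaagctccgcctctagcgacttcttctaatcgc
Rpl39l: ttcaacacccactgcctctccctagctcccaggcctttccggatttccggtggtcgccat
Rps15a: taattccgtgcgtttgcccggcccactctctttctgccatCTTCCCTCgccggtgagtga
Rps6, Rps27 and Rps15a hold such a run at their RefSeq start, while Rps27l, Rpl39 and Rpl39l hold none. A RefSeq start need not be where the mRNA begins. For Rpl39 it is at 37085222, while the gene start that goes with the counts is at 37085402. These positions also differ for the members shown with a run. They are 86857367 and 86857412 for Rps6, 118116147 and 118116188 for Rps15a, and 90213648 and 90213651 for Rps27.

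Promoter sequence was listed in RefSeq for 64 members, and 20 had no entry. For a member the RefSeq start nearest to its gene start in the counts was used. For every other gene the first start listed was used, so the shares below rest on unlike choices of start. A start at C followed by pyrimidines through base 5 was found in 12 of the 64 members (18.8%) and in 2.17% of 17492 coding promoters. A pyrimidine run of 8 or more within 20 bases of the start was found in 28 members (43.8%), against 15.5% of coding promoters. The letters CCGGAAG, on either strand between 250 bases before and 50 after the start, were found in 25 members (39.1%) and in 11.9% of coding promoters. TCTCGCGA on either strand was found in 10 members (15.6%) and in 1.51% of coding promoters. AAGATGG, searched in the same way, was found in 9 members (14.1%) and in 6.37% of coding promoters, and TATAAA in 6 members (9.38%) and in 13.3% of coding promoters. CCGGAAG and AAGATGG can overlap by the letters AAG. A match is a match of letters only, placed by the RefSeq start. Starts of transcription were not measured here, so these shares do not count the members whose mRNA has a TOP motif.

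Total counts were 12077497 to 18286944 per library at 18h, 20h and 22h, 13066794 to 16922914 at 24h and 16906302 to 17674190 in mESC. The tables hold 3 columns per group at 18h, 20h and 22h, where 4 samples are labelled. At 24h the 4 columns of each group fell into pairs whose log2 CPM (counts scaled to each library's total) correlated at 0.995 to 0.998, against 0.572 to 0.632 between other columns of a group, so each pair was summed and counted as 1 library, leaving 2 per group. In mESC there are 2 columns per group, where 3 samples are labelled. The 2 columns of each mESC group correlated at 0.998 and were kept apart to allow a fit. The p-values in mESC therefore measure only the spread between columns this alike. Libraries are numbered as the columns are, which the labels do not tie to their replicate numbers. The 24h libraries held counts for 7877 to 10167 genes and had 12.9% to 19.3% mitochondrial counts, against 17125 to 22370 genes and 1.62% to 9.84% at the earlier times. A list of 13 oocyte and 2-cell markers summed to between 9477 and 24728 CPM in the embryos, with all 13 detected in each group. The same list summed to between 28.9 and 55.1 CPM in the mESC labelled 2C-like. There 6 of the 13 (Nlrp5, Obox1, Obox2, Oosp1, Zp1, Zp2) were at 0 in both groups, while Zscan4d and Zfp352 were detected in both. The list mixes oocyte with 2-cell genes, so it does not test that label. In the same cells 8 pluripotency markers summed to between 2442 and 5340 CPM.

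Ribosomal protein mRNAs took a small share of embryo counts and a larger one in mESC. Over the 22 embryo libraries the 84 members together held 0.190% to 0.763% of all counts, with a median of 0.310%. In mESC they held 6.22% and 6.53% in control and 6.53% and 6.92% in KD. The embryo and mESC tables were made separately, and in bulk samples fewer cells of a type and less RNA per cell cannot be told apart. Counting error on these shares is small, with a widest 95% Wilson interval of ±0.0119 percentage points. Such intervals cover counting error only.

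At 18h the member share was 0.221%, 0.211% and 0.289% in the control libraries and 0.450%, 0.366% and 0.223% in the KO libraries. KO 3 lay among the controls, so the groups overlapped. At 20h the share was 0.602%, 0.272% and 0.331% in control and 0.418%, 0.561% and 0.562% in KO. Control 1 was the highest of the 6, and its summed oocyte and 2-cell markers were also the highest at 24728 CPM, against 13577 and 15244 in the other controls and 18687 to 20822 in KO; the part of this in the result was not tested. At 22h the share was 0.198%, 0.190% and 0.263% in control and 0.215%, 0.211% and 0.192% in KO. The groups overlapped again and the whole range lay below that at 20h. At 24h it was 0.514% and 0.724% in control and 0.763% and 0.761% in KO.

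**Figure D1:**
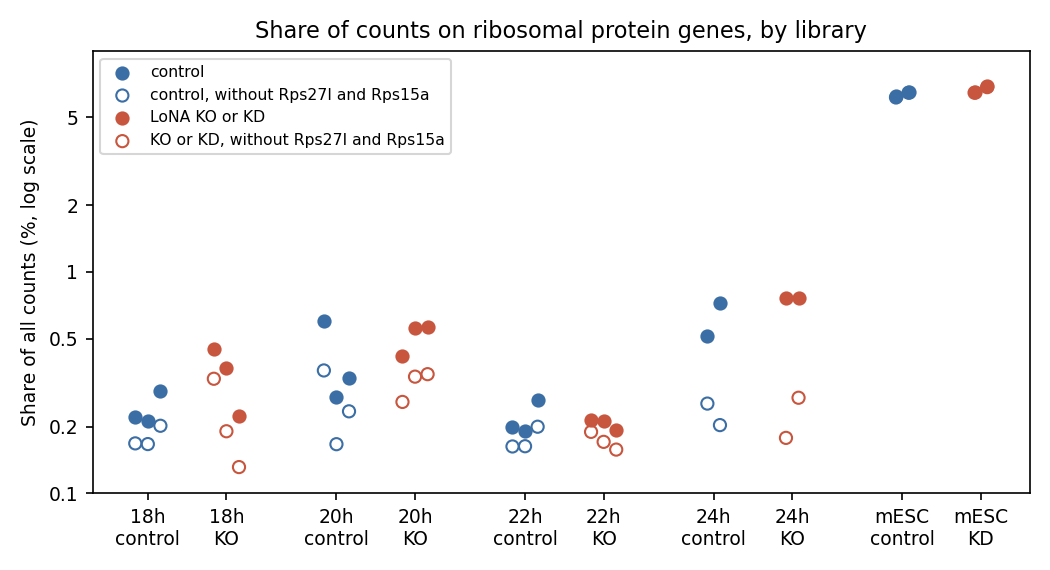
Share of all counts (%, log axis) held by the 84 ribosomal protein genes in each library, by time and genotype, with 1 filled point per library and an open point for the same share without Rps27l and Rps15a. Filled points of embryo libraries lie between 0.190% and 0.763%, with the lowest at 22h, and those of mESC columns between 6.22% and 6.92%, where the open points are nearly covered by the filled ones.

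A single member held much of the embryo total. Rps27l (chr9, 66946086 to 66949516, plus strand) took 8.83% to 64.9% of all member counts over the 22 embryo libraries, with a median of 23.0%. It took 0.177% to 0.255% of member counts in mESC. Rps27l had the highest count of any member in each library at 18h, 20h and 24h and in 3 of the 6 at 22h. Rps15a, a small subunit protein gene (chr7, 118104372 to 118116188, minus strand), took 3.002% to 14.4% in embryos, with a median of 7.72%, and 0.868% to 0.931% in mESC. Without Rps27l and Rps15a the other members held 0.131% to 0.359% of embryo counts, with a median of 0.195%. In mESC the leading member by count was Rpl4 in all 4 columns. These are counts per gene without correction for transcript length, and levels of different genes were compared only as shares of counts within a library.

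In embryos nearly all counts of the pair Rps27l and Rps27 lay on the paralog. Rps27l held 97.6% to 100% of the counts of the pair in the 22 embryo libraries, with a median of 99.8%. Rps27 itself (chr3, 90212522 to 90213651, minus strand) had 34, 9 and 41 counts in the 18h controls and 183, 125 and 2 in the 18h KO libraries. Control mESC had 3553 and 3707 counts of Rps27 and KD mESC 3421 and 3699, and Rps27l held 43.0% and 40.7% of the pair in control and 38.6% and 36.5% in KD. Rps27rt, a further gene copy of Rps27, had 0 to 25 counts in embryo libraries and 629 to 751 in mESC. How the counting treated reads that fit several of these genes is not given in the sources used here. Its part in the low embryo counts of Rps27 was not tested.

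The pair Rpl39l and Rpl39 was likewise weighted to the paralog in embryos. Rpl39l (chr16, 10170226 to 10174911, plus strand), known from male germ cells, held 49.6% to 92.5% of the pair in embryos, with a median of 86.2%. In mESC it held 4.72% and 5.46% in control and 9.20% and 9.32% in KD. Within embryos, its share was 49.6% and 61.4% in the 24h controls and 63.8% and 73.4% in 24h KO, below every library of the earlier times, where the range was 73.8% to 92.5%. KO and control ranges overlapped at 18h (73.8% to 92.5% in KO against 78.4% to 89.6%), at 20h and at 22h.

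The other pairs had a lower median share on the paralog in embryos. Rpl7l1 held a median of 45.8% of its pair with Rpl7 in embryos and 10.8% to 12.3% in mESC. At 22h it held 52.2% to 60.1% in control and 50.8% to 55.0% in KO. In the 24h libraries its share was 0.109% and 99.2% in control and 0.0653% in KO 2, with no counts of either gene in KO 1. Rpl10l, a copy of Rpl10 without introns known from spermatogenesis, held 0.164% to 10.8% of its pair in embryos. In mESC Rpl10l held 3.47% and 3.35% in control and 1.502% and 1.559% in KD. Rpl22l1 held a median of 8.39% in embryos, Rpl36al 0.377%, and Rpl3l, the muscle paralog of Rpl3, had no counts in most embryo libraries. The widest 95% Wilson interval of a single library's share was ±1.28 points for Rps27l, ±4.06 for Rpl39l, ±6.21 for Rpl7l1 and ±2.43 for Rpl10l.

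**Figure D2:**
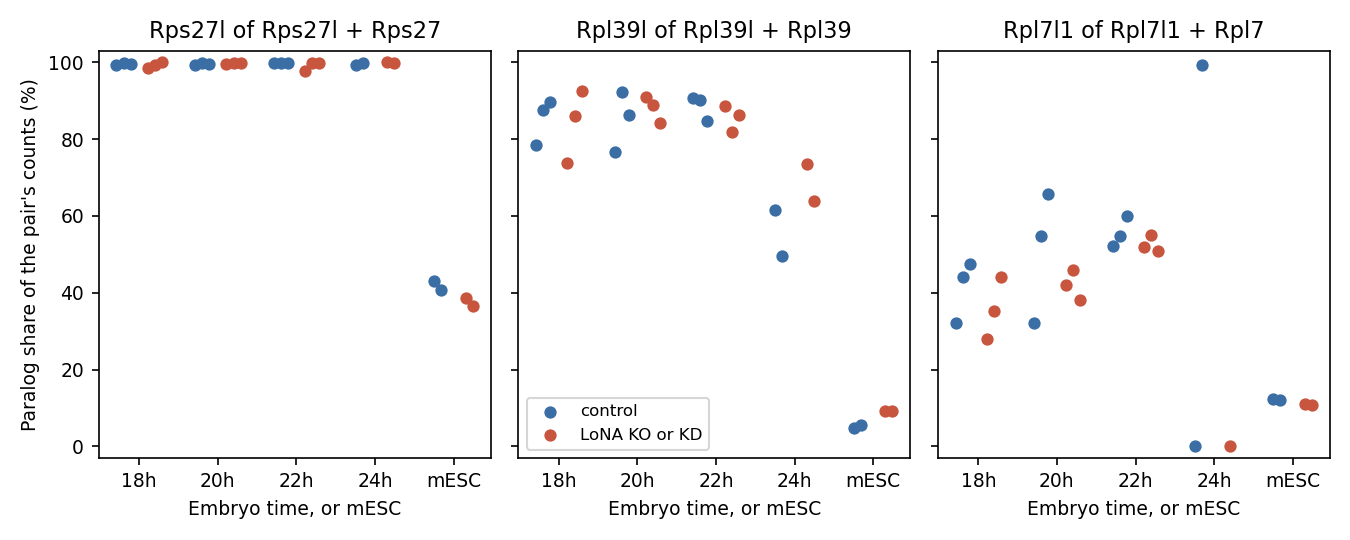
Share (%) of the counts of a pair that fall on the paralog, for Rps27l with Rps27, Rpl39l with Rpl39 and Rpl7l1 with Rpl7, with 1 point per library that has at least 50 counts for the pair. Rps27l lies between 97.6% and 100% in embryos and between 36.5% and 43.0% in mESC, Rpl39l between 49.6% and 92.5% in embryos and between 4.72% and 9.32% in mESC, and the Rpl7l1 points of 24h lie at either end of the axis.

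KO was then compared with control at each time, which addresses whether loss of LoNA changes these mRNAs in the embryo. At 18h no member passed in edgeR's quasi-likelihood test (adjusted p under 0.05 over all genes tested): 0 of 81 tested were higher and 0 lower, where 0% and 0.00649% of 15416 genes were called. At an unadjusted p under 0.05 there were 4 members, all higher in KO (Rps15a, Rps27l and Rps4x among them), beside 5.14% of all genes. DESeq2 called 0 members, beside 25 of 15416 genes higher and 39 lower. The estimated log2 change was above 0 for 71 of the 81, against 48.8% of all genes, with a median of 0.55 against -0.02, and the member median was 0.18 without KO 1. The median was 0.62 in the small and 0.51 in the large subunit. The standard error (SE) of a single member had a median of 0.55.

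The 2 leading members at 18h by unadjusted p, Rps15a and Rps27l, had the largest counts in the KO libraries. In the controls the 2 largest counts were those of Rps27l and Rplp0. Rplp0 measured 198.0 to 252.5 CPM in control and 119.2 to 261.7 CPM in KO, with overlapping groups. Rps15a measured 162.4, 106.4 and 241.2 CPM in control and 344.0, 576.1 and 302.4 CPM in KO. All 3 KO libraries of Rps15a lay above all 3 controls, with a log2 change of 1.26 (SE 0.37, edgeR adjusted p = 0.744). Rps27l measured 384.0, 314.5 and 596.7 CPM in control and 753.0, 1345 and 713.9 CPM in KO. Its groups did not overlap either, with a log2 change of 1.12 (SE 0.35, edgeR adjusted p = 0.766). KO 2, the highest library for both, also had the highest mitochondrial share at 9.84%; the part of that in the result was not tested. Groups did not overlap for 9 members, all higher in KO (among them Rpl13a, Rpl36, Rpl37a, Rpl8, Rps15a, Rps21 and Rps27l), beside 5.79% of all genes higher and 7.04% lower.

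Other members named by size at 18h overlapped between groups. Rpl36a measured 10.1, 4.93 and 4.88 CPM in control and 13.2, 26.96 and 5.29 CPM in KO (log2 change 1.19), and Rps4x, the X-linked S4 gene, 16.02, 18.5 and 12.1 CPM against 59.0, 32.9 and 12.9 CPM (1.17). Rpl3, which lies near the peptidyl transferase centre, measured 11.5, 18.4 and 31.7 CPM in control and 28.6, 3.15 and 5.11 CPM in KO (-0.74). In each of these a KO library lay within the control range. Rps2 had a log2 change of -0.42 and Rpl7l1 of -0.34. Rps27 had an estimate of 1.84 on the low counts given above. Among the 17 members fixed for their roles, 11 had an estimate above 0.

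At 20h again 0 of 80 members tested were called higher and 0 lower by edgeR, beside 0.00689% of 14524 genes in each direction. DESeq2 called 0 members, beside 8 of the 14524 genes higher and 14 lower. Members with an unadjusted p under 0.05 were 2, Rpl7a (log2 change 0.78) and Rpl10l (-2.99), beside 3.66% of all genes. The estimate was above 0 for 58 of the 80, against 48.4% of all genes, with a median of 0.33 against -0.03. Without control 1, the library that stood apart above, the member median was 0.95, and without control 2 or control 3 it was 0.061 or 0.17. The groups did not overlap for 5 members higher in KO (Rpl19, Rpl28, Rpl7a, Rps18 and Rpsa) and for 1 lower (Rpl10l), beside 4.65% and 5.22% of all genes.

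Values of single members at 20h were spread widely within a group. Rpl28, a large subunit protein whose gene overlaps Ube2s, measured 27.4, 12.5 and 8.71 CPM in control and 35.0, 38.8 and 27.98 CPM in KO. Its groups did not overlap (log2 change 1.06, SE 0.49, edgeR adjusted p = 0.998). Rps21 had a log2 change of 0.96 and Rpl21 of 0.93, with overlapping groups. Rps3, which forms part of the mRNA entry channel, measured 36.5, 6.25 and 6.34 CPM in control and 10.8, 10.98 and 5.92 CPM in KO. The estimate for Rps3 was -0.83, and 0.59 without control 1. Rpl7l1 had an estimate of -0.68 and Rpl6 of -0.55. Rps27l measured 1720, 847.7 and 711.3 CPM in control and 1177, 1433 and 1398 CPM in KO, with control 1 above every KO library (log2 change 0.29, SE 0.37). Rpl10l, for which the 24h table has no row, measured 18.7, 2.63 and 3.72 CPM in control and 0.758, 0.331 and 2.04 CPM in KO.

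At 22h, 0 of 78 members tested were called higher and 0 lower by edgeR, beside 0% and 0.00656% of 15251 genes. No member had an unadjusted p under 0.05, beside 3.15% of all genes. DESeq2 called 0 members, beside 4 of 15251 genes higher and 1 lower. The estimate was above 0 for 33 of 78, against 49.8% of all genes, with a median of -0.09 against -0.00, and the member median was 0.22 without control 3. Groups did not overlap for 3 members higher in KO (Rpl10l, Rpl18 and Rps15) and 4 lower (Rpl29, Rpl39l, Rps3a1 and Rps6), beside 4.73% and 4.5% of all genes. Rpl39l measured 34.1, 25.4 and 36.3 CPM in control and 22.5, 20.6 and 21.3 CPM in KO, with every KO library under every control (log2 change -0.57, SE 0.28, edgeR adjusted p = 1). Rpl10, which completes the peptidyl transferase region, measured 47.4, 55.4 and 70.6 CPM in control and 59.0, 85.5 and 102.0 CPM in KO, and the groups overlapped (0.51). Rps24, Rpl19, Rpl3 and Rps2, the other members named by size, had log2 changes of -0.54, -0.47, 0.75 and 0.35. Rps27l measured 285.7, 184.5 and 499.5 CPM in control and 175.3, 305.2 and 267.4 CPM in KO (-0.37, and 0.08 without control 3).

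At 24h, with 2 libraries per group, 0 of 72 members tested were called in either direction, beside 0% of 7425 genes in each. At an unadjusted p under 0.05 there was 1 member, Rpl22l1, beside 5.16% of all genes. It had 0 and 0 counts in control and 66 and 33 in KO. DESeq2 called 0 members, beside 155 of 7425 genes higher and 256 lower. The estimate was above 0 for 42 members, against 50.5% of all genes, with a median of 0.21 against 0.02, and the member median was -0.65 without KO 2. The SE of a single member had a median of 2.64 on the log2 scale, and 9 members were higher and 9 lower without overlap, beside 16% and 17.3% of all genes. Rps27l measured 1975 and 5188 CPM in control and 5924 and 4455 CPM in KO, so the groups overlapped (log2 change 0.54, SE 0.54). Rpl10 measured 14.6 and 0 CPM in control and 129.6 and 72.6 CPM in KO, and Rpl13 measured 39.4 and 81.4 CPM in control and 0 and 12.3 CPM in KO. Both are used by every cell and were at 0 in 1 library each, and single 24h libraries held counts for 63 to 79 members. The other members named by size were Rps9 (log2 change 2.35), Rpl36a (2.29), Rps25 (-2.19) and Rpl27a (-1.44). Marker sums also differed between the genotypes at 24h. Summed trophectoderm markers were 127 and 98.1 CPM in the controls (3 of 6 detected, with Cdx2, Elf5 and Krt8 at 0) and 0.0591 and 6.42 CPM in KO (2 of 6, with Krt18 also at 0). Fibroblast markers moved the other way, from 3.44 and 0.124 CPM to 71.6 and 27.02 CPM, with 3 of 9 detected in each group and Col1a1, Col3a1, Dcn, Lum and Thy1 at 0 in both. Oocyte and 2-cell markers were 11340 and 9477 CPM in control and 16378 and 14520 CPM in KO. The part of these in the member values was not tested.

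Of the 78 members that entered the tests of the 3 earlier times, 0 were higher and 0 lower without overlap at every time. The estimate lay above 0 at all 3 times for 20 members and below 0 for 3. The difference in KO effect between the times was tested in 1 fit over 18992 genes. It called 0 members and 0% of all genes with edgeR, and DESeq2 called 0 members and 15 of 18992 genes. At an unadjusted p under 0.05 there were 3 members (Rpl10l, Rpl39l and Rps4x), beside 6.27% of all genes.

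**Figure D3:**
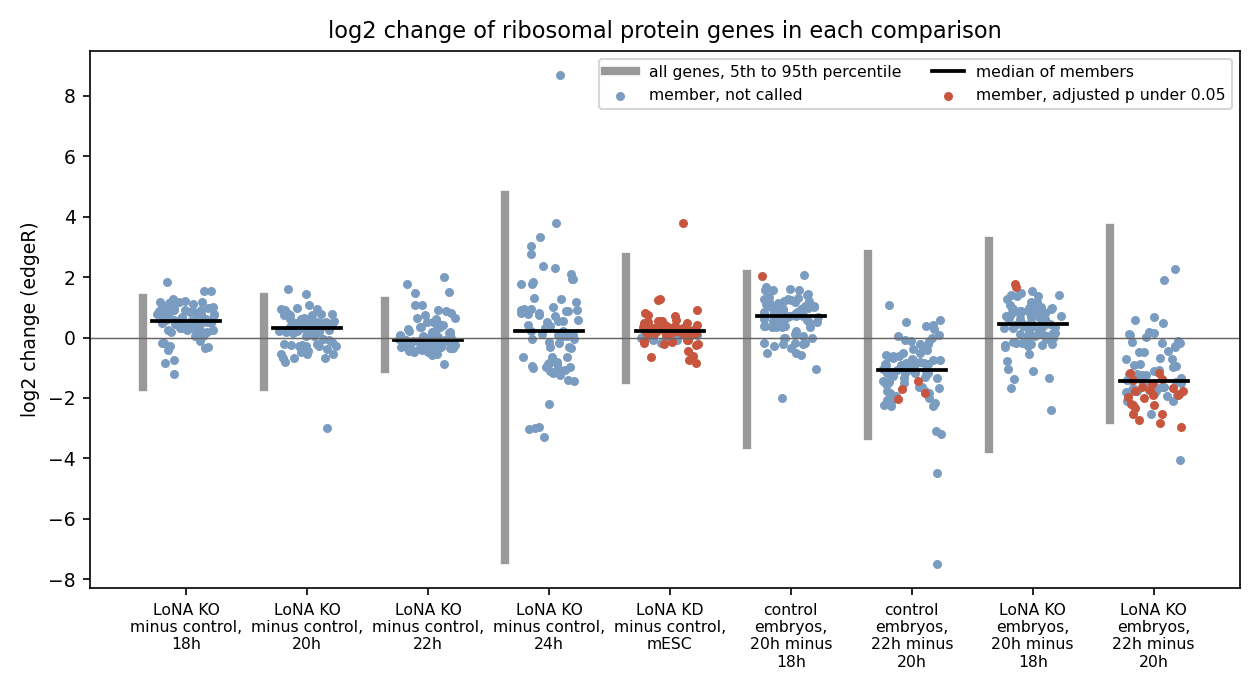
Log2 change of each member tested (points) in the 5 comparisons of KO or KD with control and in the 4 steps between times. The black line is the member median, the grey bar spans the 5th to 95th percentile of all genes tested, and red points have an edgeR adjusted p under 0.05: 68 in mESC, none in KO against control embryos, and 1, 4, 2 and 24 in the 4 steps between times.

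Times within a genotype were compared next. In control embryos from 18h to 20h, edgeR called 1 of 81 members higher and 0 lower, beside 0.521% and 0.232% of 18992 genes. Leaving out any 18h control, or 20h control 1, removed the call. DESeq2 called 12 members higher, beside 618 of 18992 genes. Fitted on the 18h and 20h controls alone, or at a threshold of 0.01, no member was called. With an unadjusted p under 0.05 there were 19 members, 18 of them higher, beside 14.9% of all genes. Estimates above 0 were found for 66 of 81, against 47.4% of all genes, with a median of 0.72 against -0.07. Summed oocyte and 2-cell markers lay between 10291 and 13072 CPM in the 18h controls and between 13577 and 24728 CPM at 20h, without overlap, and their part in the result was not tested. At each time the libraries are a table of their own, so time and table cannot be told apart.

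From 20h to 22h in control embryos, 0 members were called higher and 4 lower, beside 1.55% and 1.39% of all genes. Rps15a fell from 718.3, 274.8 and 270.8 CPM to 77.7, 71.6 and 161.4 CPM (log2 change -2.02, SE 0.44, edgeR adjusted p = 0.0177). Rps27l fell from 1786, 835.5 and 702.7 CPM to 276.1, 180.4 and 478.7 CPM (-1.83, SE 0.40, edgeR adjusted p = 0.0178). In both, every 22h library lay under every 20h library. Rpl37a fell from 46.1, 22.3 and 25.1 CPM to 7.26, 7.49 and 13.7 CPM (-1.71, edgeR adjusted p = 0.0233), and Rpl29 from 92.2, 48.1 and 47.8 CPM to 21.4, 27.01 and 20.9 CPM (-1.44, edgeR adjusted p = 0.0400). An unadjusted p under 0.05 was found for 37 members, all lower, beside 17.6% of all genes. Estimates above 0 were found for 8 of 81, against 48.7% of all genes. DESeq2 called 25 members lower, beside 807 of 18992 genes. Without 20h control 1, or without 22h control 1 or control 2, no member was called. Without 20h control 2 there were 9 lower, beside 233 of 20111 genes. With only the 20h and 22h controls in the fit, or at a threshold of 0.01, no member was called. The mitochondrial share of counts was also lower, between 1.62% and 2.99% at 22h against 3.87% to 4.997% at 20h, and its part in the result was not tested. Both control steps share the 20h control libraries.

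In KO embryos, compared after seeing the data, the 18h to 20h step called 2 members higher and 0 lower, beside 0.964% and 0.295% of all genes. Rpl7a, a large subunit protein whose gene also holds a snoRNA, rose from 35.0, 19.8 and 8.95 CPM to 64.4, 83.5 and 70.3 CPM (log2 change 1.77, edgeR adjusted p = 0.0343). Its groups did not overlap. With only the 18h and 20h KO libraries in the fit, or at a threshold of 0.01, no member was called. Leaving out 18h KO 2, 18h KO 3, 20h KO 2 or 20h KO 3 also left none called. Without 18h KO 1, 5 were called higher, beside 248 of 20046 genes, and without 20h KO 1, 6 were, beside 374 of 20035. Of the members, 17 had an unadjusted p under 0.05, 15 of them higher, beside 18.6% of all genes. The log2 change was above 0 for 62 of 81, against 50.2% of all genes. Oocyte and 2-cell markers summed to between 11737 and 15980 CPM in 18h KO and to between 18687 and 20822 CPM in 20h KO, while cumulus and granulosa cell markers went from between 48.3 and 67.0 CPM to between 19.4 and 23.7 CPM; their part was not tested.

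From 20h to 22h in KO embryos, 0 members were called higher and 24 lower, beside 4.51% and 4.16% of all genes. Rps15a fell from 391.9, 779.0 and 805.8 CPM to 58.0, 102.5 and 93.4 CPM (log2 change -2.96, SE 0.46, edgeR adjusted p = 0.00146). Rps27l fell from 1227, 1511 and 1426 CPM to 170.7, 300.2 and 257.5 CPM (-2.52, SE 0.41, edgeR adjusted p = 0.00151). In both, each 20h library was above each 22h library. Rpl39l fell from 80.0, 129.1 and 88.2 CPM to 21.9, 20.3 and 20.5 CPM (-2.25, SE 0.38, edgeR adjusted p = 0.00174). Rpl41, which encodes a very short basic protein, fell from 42.7, 74.6 and 99.9 CPM to 14.3, 7.11 and 11.7 CPM (-2.71). An unadjusted p under 0.05 was found for 49 members, 1 of them higher, beside 22.5% of all genes. Estimates lay above 0 for 10 of 81, against 51.2% of all genes, with a median of -1.45. Leaving out any of 5 of the 6 libraries, 20h KO 1 being the exception, lowered the count of called members to between 8 and 13. The count of all genes called lower was then between 322 and 529. At a threshold of 0.01, 8 members were called lower, beside 318 of 18992 genes. With only the 20h and 22h KO libraries in the fit 39 were, beside 929 of 14892 genes.

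Other measures of the KO libraries also differed between 20h and 22h without overlap. The mitochondrial share was 4.68% to 6.38% at 20h and 1.90% to 2.49% at 22h. Oocyte and 2-cell markers, all 13 detected at both times, summed to between 18687 and 20822 CPM and then to between 11476 and 14434 CPM. Cumulus and granulosa cell markers summed to between 19.4 and 23.7 CPM with 8 of 12 detected at 20h, and to between 61.2 and 187.5 CPM with 9 of 12 at 22h, with Amh and Ptx3 at 0 at both times. Genes with a count numbered 17287 to 18473 at 20h and 19927 to 20732 at 22h. The part of these in the fall of the 24 members was not tested.

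In mESC, 55 of 83 members tested were higher and 13 lower in KD, beside 38.9% and 35.3% of 16406 genes called in those directions by edgeR. The changes were small: 67 members lay within 0.5 on the log2 scale, 12 above it and 4 below -0.5. The estimate was above 0 for 63 members, against 50.5% of all genes, and the median was 0.21 against 0.01. With scaling by library size alone the member median was 0.12 and that of all genes -0.08. The median was 0.20 in the small and 0.23 in the large subunit. DESeq2 called 47 members higher and 11 lower, beside 5548 and 4613 of 16406 genes. Without control 2 or KD 1 the member median was 0.25 or 0.27. Summed pluripotency markers, all 8 of them detected, stood at 5340 and 5327 CPM in the control columns and at 2525 and 2442 CPM in the KD columns. Summed fibroblast markers, all 9 detected, were 1008 CPM in both controls and 1386 and 1407 CPM in KD. The mitochondrial share was 1.48% and 1.53% in control and 2.26% and 2.24% in KD. Oocyte and 2-cell markers summed to 54.4 and 55.1 CPM in control and to 28.9 and 32.3 CPM in KD, with 7 and 6 of 13 detected. Trophectoderm markers, all 6 detected, went from 80.7 and 80.2 CPM to 42.7 and 44.9 CPM, and 11 of 12 cumulus and granulosa cell markers from 60.7 and 57.6 CPM to 31.1 and 28.2 CPM. The part of any of these in the member values was not tested.

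The largest rise in mESC was at Rpl34 (chr3, 130726831 to 130730398, minus strand), a large subunit protein gene. It rose from 16.4 and 15.1 CPM to 207.0 and 227.8 CPM with the knockdown (log2 change 3.79, SE 0.066, edgeR adjusted p = 6.52e-22). Its pseudogene Rpl34-ps1 moved the other way, with 5897 and 6329 counts in control and 3591 and 3750 in KD. Summed with its named pseudogenes, Rpl34 went from 6182 and 6592 counts to 7142 and 7573, a log2 change of 0.25 (SE 0.044, edgeR adjusted p = 3.17e-05). The fold change of Rpl34 alone is therefore uncertain, since reads of the gene and of its copy could have been split between them. Of 52 members with a named pseudogene, Rpl34 moved most when the copies were added, and 55 members were then called higher and 10 lower.

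Rpl39l also rose in KD, from 10.7 and 12.8 CPM to 27.2 and 28.8 CPM (log2 change 1.26, SE 0.10, edgeR adjusted p = 3.34e-10). Rpl36al rose on low counts, 15 and 14 in control and 40 and 28 in KD. Among members of the ribosomal stalk and of the 5S RNA particle, Rplp0 rose from 1185 and 1206 CPM to 2010 and 2141 CPM (0.80, edgeR adjusted p = 3.78e-14). Rplp2, also of the stalk, measured 630 to 655.2 CPM in control and 821.8 to 896.4 CPM in KD. Rplp1, likewise of the stalk, measured 1111 to 1194 CPM in control and 1161 to 1266 CPM in KD, so its groups overlapped. Rpl11, which with Rpl5 can bind Mdm2, rose from 536.3 and 571.1 CPM to 899.1 and 957.9 CPM (0.75, edgeR adjusted p = 4.65e-13), while Rpl5 rose by 0.17. Rpl41 rose from 787.8 and 845.8 CPM to 1442 and 1612 CPM (0.90). Apart from Rplp1, no KD column of these genes overlapped a control column.

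The members that fell in KD included the germ cell paralog Rpl10l, from 39.4 and 39.3 CPM to 21.0 and 22.6 CPM (log2 change -0.85, SE 0.079, edgeR adjusted p = 2.67e-09). Its partner Rpl10 rose from 1095 and 1133 CPM to 1380 and 1429 CPM (0.33). Rpl26, which binds p53 mRNA in other cells, fell from 662.0 and 676.6 CPM to 392.4 and 412.6 CPM (-0.73). Rps18 fell from 968.9 and 986.4 CPM to 599.9 and 637.4 CPM (-0.66). Its gene overlaps Vps52, and its pseudogene Rps18-ps3 had 109 and 129 counts in control and 910 and 989 in KD, with which the change was -0.54. Rpl35a fell from 245.4 and 252.2 CPM to 159.7 and 168.0 CPM (-0.60), and Rpl21 from 125.7 and 135.1 CPM to 92.0 and 99.6 CPM (-0.44). Rps27l fell from 153.7 and 146.2 CPM to 125.2 and 126.9 CPM (-0.25, edgeR adjusted p = 3.44e-05), while Rps27 had an estimate of 0.01 and was not called. Of the 17 members fixed for their roles, 9 were called higher and 3 lower (Rpl3, Rpl4 and Rps6).

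**Figure D4:**
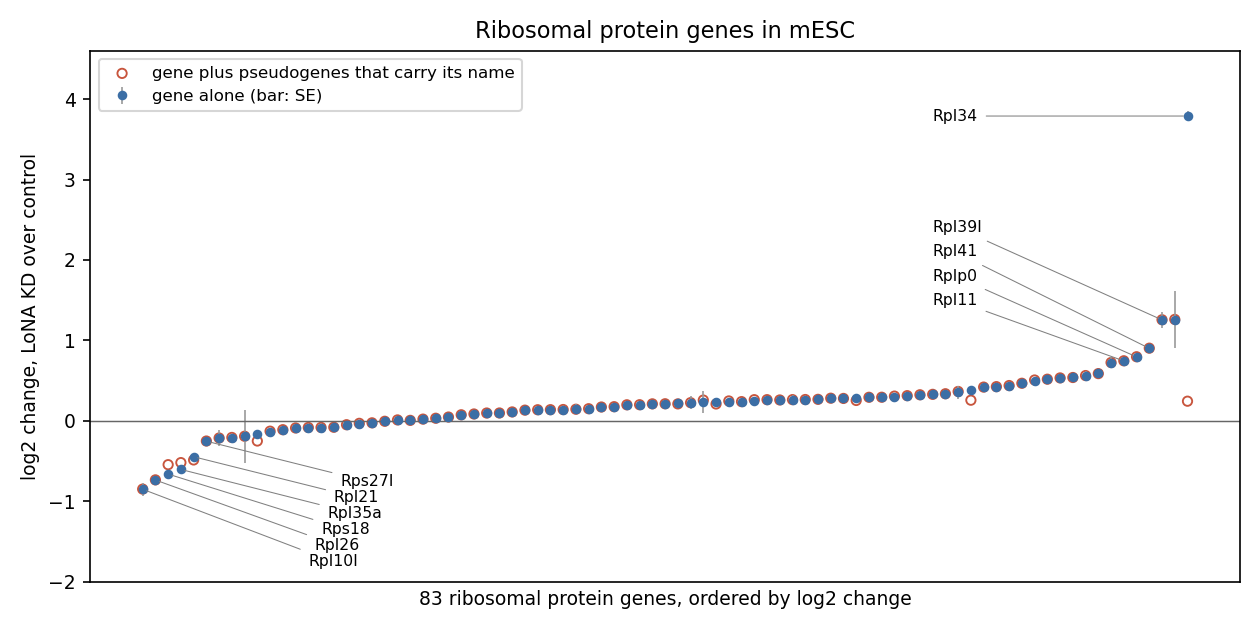
Log2 change in mESC, KD minus control, for each of the 83 members tested, in rising order, with filled points for the gene alone (bars are the SE of the fit) and open points for the gene summed with the pseudogenes that carry its name. Rpl34 stands at 3.79 alone and at 0.25 with its pseudogenes, Rpl36al and Rpl39l follow at 1.26, and Rpl10l is lowest at -0.85.

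Other genes of the pathway were read from fixed lists. Their counts in mESC stand beside 38.9% of all genes called higher and 35.3% lower, and nothing particular to these lists is read from them. Of 14 translation factors and other mRNAs with a TOP start, 6 were higher and 6 lower, with a median of -0.01; Eif3h had 0.49 and Pabpc1, the poly(A) binding protein, -0.41. Of 13 regulators of these mRNAs, 6 were higher and 6 lower, among them Larp1 at 0.55 and Mtor at -0.23. Of 10 escorts and importers of ribosomal proteins, 5 were higher and 1 lower: Tsr2, the chaperone of Rps26, had 0.91, and Ipo5 had -0.59. Of 4 genes of the p53 list, Cdkn1a was higher (1.72) and Mdm2, Mdm4 and Trp53 were lower (-0.32, -1.22 and -0.28); the mean that the authors deposited for Cdkn1a does not match its counts in this table. In embryos, 0 genes of any of these lists were called at 18h, 20h, 22h or 24h.

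Promoter chromatin of the members was read from the authors' 24h peak tables, which give 1 value per condition (also for AcNPM1, where 3 samples per condition are labelled) and no replicates, so no test was made. The column initials were read as control and KO. H3K4me3, the mark of active promoters, had a peak within 1 kb of the start of 81 of 84 members, beside 70.2% of 20027 coding genes. Members without one were Rpl39l, Rps10 and Rps2. The median width of the member peaks was 1319 bp, against 1276 bp over coding genes with a promoter peak, and 17 were at least 1943 bp wide, the width reached by the widest 10% of those genes. In 16 members the peak also holds the start of another coding gene. With the window widened to 2.5 kb, 83 of 84 members had a peak, beside 73.3% of coding genes.

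The authors' log2 ratio of KO to control for H3K4me3 had a median of -0.15 over the member peaks and -0.13 over coding genes, and 12 of 81 were above 0, beside 21.9%. Among the 3 lowest ratios were those at Rps24 (chr14:24490545-24491447; -0.54, from 12.5 to 8.62 RPM, the authors' reads scaled to the total of a condition) and Rps29 (-0.44). The highest were at Rpl3 (0.23), Rpl10l (0.15) and Rpl9 (0.10), and the peaks at Rpl3 and Rpl9 also hold the starts of Syngr1 and Lias. Rps27l, the leading member by RNA count, had a peak at chr9:66945505-66946830 with 23.1 RPM in control and 20.2 RPM in KO (-0.20). Its log2 ratio is close to the median of the members. Rpl39l had no H3K4me3 peak within 1 kb of its start, while its RNA was counted in every 24h library.

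The repressive mark H3K27me3 and AcNPM1 were mostly without peaks at these promoters. H3K27me3 had a peak within 1 kb of 2 of 84 members, beside 15.8% of coding genes. They were Rpl10l, from 1.46 to 2.05 RPM (0.49), and Rpl7 (-0.43), whose peak lies off the gene start and holds the start of Rdh10. Over coding genes with such a peak the median ratio was 0.11, with 5th and 95th percentiles of -0.30 and 0.48. AcNPM1 had a peak at 0 of 84 members in the table of control and KO, beside 14.0% of coding genes. In the table of KO embryos with and without the p300 inhibitor it had a peak at 3 of 84, beside 16.4%: Rps29 (0.74), Rpl10l (0.22) and Rpl7 (-0.29, again with Rdh10), each given as inhibitor over none. Over coding genes with such a peak the median ratio was -0.11, with 5th and 95th percentiles of -0.53 and 0.34. The Rps29 peak was weak, at 1.97 RPM without inhibitor, against a median of 6.62 RPM over those genes.

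**Figure D5:**
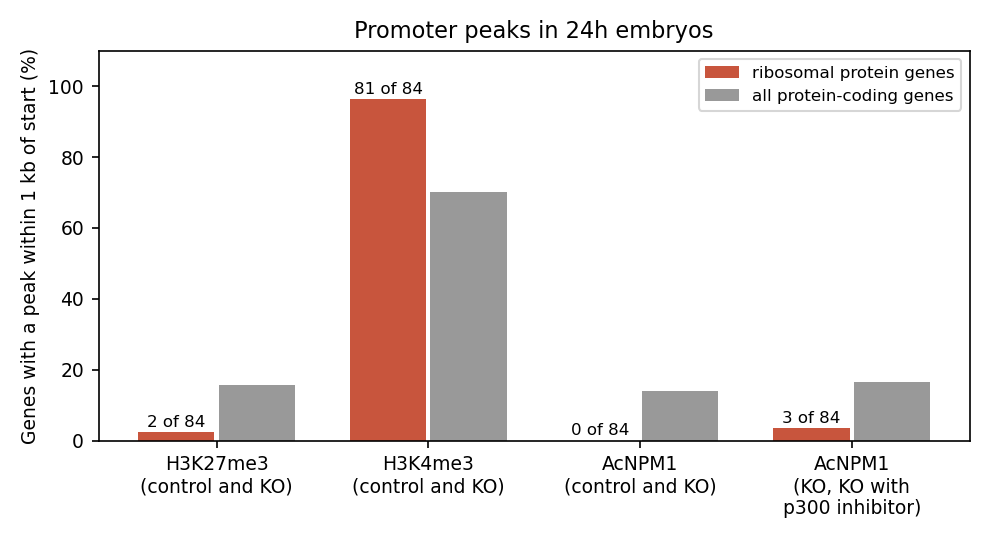
Percent of the 84 ribosomal protein genes (red bars, with their number above) and of all protein-coding genes (grey bars) that have a peak within 1 kb of their start in each of the authors' 24h peak tables. The red bar is above the grey one for H3K4me3 (81 of 84, against 70.2%) and below it for H3K27me3 (2 of 84, against 15.8%) and in both AcNPM1 tables (0 and 3 of 84, against 14.0% and 16.4%).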

How the data were processed

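RNA tables hold raw counts per gene, deposited by the authors beside a mean that the tables name baseMean (signal) and a fold change ratio; only counts entered tests. HISAT2 2.1.0 and HTSeq 0.6.0 are named in the submitters' processing notes, with Bowtie2 and MACS2 2.1.1 for chromatin and build mm10. Peak tables give the authors' read counts, RPM and log2 ratio per peak. edgeR 4.0.16 (quasi-likelihood test, TMM scaling, expression filter by group, Benjamini-Hochberg over all genes tested) was fitted per table, and for time in 1 fit over 18h, 20h and 22h; DESeq2 1.42.0 was an alternative. CPM use the TMM-scaled totals of each fit, so a library's CPM differ slightly between the fits within and across times. Code was tested on simulated counts with 100 genes changed 2-fold and 100 changed 4-fold. Of the 2-fold changes edgeR recovered 1% at 18h, 0% at 20h, 4% at 22h, 0% at 24h and 77% in mESC. Of the 4-fold changes it recovered 28%, 17%, 50%, 0% and 86% in the same order. Members and lists were chosen with earlier results of these data known. Named were 17 role genes, paralogs, members past the threshold (over 10: the 5 largest rises and falls with mean CPM of at least 10; none: the 3 highest and lowest) and the 3 highest and lowest peak ratios; others, such as Rps27l and those whose groups did not overlap, were named after their values were seen. Transcript lengths and protein sequences were not used here, so levels per kilobase and protein identities were not computed. Of the members, 35 overlap another gene, and strand use in counting is not given in the sources used here. Values of a few members and of 1 related list are not reported here.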

Additional observations from a re-analysis of the deposited data

How the results depend on the processing

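In the alternatives that leave all libraries in, counts and medians were rated as kept in 176 and as moved in 16. A median was kept if it stayed within the spread. A count was kept also if it moved by a limited factor, as from 55 to 44 members higher in mESC with scaling by library size. Embryo counts of KO against control were 0 in every such setting, and they are among the 176. Single members kept their direction in all 344. In mESC the member median was 0.122 with scaling by library size, where that of all genes moved from 0.01 to -0.08. At 24h that scaling moved the median of all genes from 0.02 to -0.22 and that of members from 0.21 to 0.08. For control embryos from 18h to 20h the count higher was 12 with DESeq2, beside 618 of 18992 genes. It was 0 with a threshold of 0.01 or with only the control libraries of both times. From 20h to 22h the count lower was 25 with DESeq2, beside 807 of 18992 genes, and 0 at that threshold or with only the control libraries. For KO embryos, compared after seeing the data, DESeq2 gave 8 higher from 18h to 20h, beside 773 of 18992 genes. From 20h to 22h it gave 44 lower and 1 higher, beside 1383 and 1281. The threshold of 0.01 gave 0 and 8 lower, the latter beside 318 of 18992 genes. Only the KO libraries gave 0, then 39 lower and 1 higher, beside 929 and 912 of 14892 genes. With a peak required over the gene start, H3K27me3 was at 1 member.

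Leaving out each library in turn gave member medians of 0.18 to 0.80 at 18h, 0.061 to 0.95 at 20h, -0.15 to 0.22 at 22h, -0.65 to 0.35 at 24h and 0.17 to 0.27 in mESC. In mESC 42 to 57 members were then higher and 8 to 13 lower. The count higher from 18h to 20h was 0 to 1 in control and 0 to 6 in KO, and the count lower from 20h to 22h was 0 to 9 and 8 to 26. Single estimates ranged from -1.21 to 0.59 for Rps3 at 20h (above 0 without control 1), from -0.66 to 0.082 for Rps27l at 22h (above 0 without control 3), from -0.12 to 1.01 for Rpl39l at 24h (below 0 without KO 1) and from -1.76 to 11.12 for Rps9 at 24h (below 0 without KO 2). The cause of these moves was not tested. A group left with 1 library is assumed to vary like the other.

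With the column number as a replicate block, member medians were 0.43 at 18h, 0.47 at 20h, -0.05 at 22h, -0.03 at 24h and 0.21 in mESC, 0 members were called in embryos, and 57 were higher and 15 lower in mESC. Deviations of same-numbered columns correlated at -0.126 to 0.114, and those of columns with unlike numbers at -0.152 to 0.164. With 2 or 3 libraries per group such deviations depend on each other, so they cannot decide whether the libraries were paired. At 24h the number was that of the first column of each sum, and the fit had 4 libraries. The median SE of a member was 0.55, 0.53 and 0.41 on the log2 scale at 18h, 20h and 22h, 2.64 at 24h and 0.042 in mESC; totals per library overlapped between embryos and mESC, and depth was not varied.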
